A study of Mus musculus with 3 samples.

Results

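The injury genes described here are Sprr1a, Tnfrsf12a, Cd44, Gdf15, Lgals3, Timp1, Bglap3, Uchl1 and Prr13, which are 9 of the 55401 mouse gene identifiers in the deposited count tables. They were chosen by name as a set of heart muscle injury and border-zone genes, and this name is a label only. Sprr1a, Bglap3 and Prr13 lead the cluster of most Ino80-high wells, and a role of Bglap3 or Prr13 in injury was not tested. The detection of all 9 genes in each library, and their levels in day 3 wells of high and low Ino80, were already known. Their levels, shares of wells and ratios between these groups are therefore descriptions, and no test was made of them. All 9 had counts in each of the 3 libraries.

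Heart cells of adult mice were sequenced as single wells at days 1, 2 and 3, with 1 library per day. All animals had received tamoxifen, and the sources used here do not give strain or age. The series title names Myh6-MCM and Ino80fl/fl, that is, a tamoxifen-dependent Cre under the promoter of the cardiomyocyte gene Myh6 and a floxed Ino80, while the genotype labels read D1_INO80_OE, D2_INO80_OE and, for day 3, D3_INO80_OE together with D3_Ctrl. Ino80 encodes the ATPase of the INO80 chromatin remodelling complex. No file used here says which day 3 well belongs to which genotype, so day 3 wells are named only by their own Ino80 level, in counts per 1000000 counts of nuclear-encoded genes (CPM): Ino80-high wells had at least 1000 CPM, Ino80-low wells had under 100 CPM, and the wells between them are called middle. The number of animals behind a library is not given, and a single library per day leaves no replicate error. Every 95% interval below covers counting error only, and every difference is one between libraries or wells, not a test of a condition.

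The comparisons use the cardiomyocyte compartment, which is all kept wells outside clusters named as another cell type, a name that needed at least 3 raised markers. It is defined by what it leaves out: its cluster of 547 wells, most of day 1, had 2 raised lymphocyte markers, and an unnamed cluster of 57 wells led by Cytl1, Npr3 and Vwf had 2 raised endothelial markers. Its cluster of 630 wells, most of day 2, was led by Igkc and Igha and had 1 raised lymphocyte marker. The 10 lymphocyte markers summed to 68.5 CPM on day 1 and 425 CPM on day 2, where the highest single well had 252694 CPM. The compartment held 606 wells on day 1, 650 on day 2 and 899 on day 3, of which 400 were Ino80-high, 47 middle and 452 Ino80-low. The summed level of 12 ventricular cardiomyocyte markers was 111865 CPM on day 1 and 114052 CPM on day 2, and 76433 CPM in Ino80-high against 132124 CPM in Ino80-low wells. All 12 were above 5 CPM in each of these groups. Summed Ino80 was 2860 CPM on day 1, 4950 CPM on day 2, 3035 CPM in Ino80-high wells and 18.1 CPM in Ino80-low wells. Median depth per well was 202845, 200600, 239440 and 326923 nuclear-encoded counts in the same order. The median share of mitochondrial counts was 40.7% on day 1 and 43.7% on day 2, against 19.6% in Ino80-high and 22.2% in Ino80-low wells. Ino80-high wells lay almost wholly in a single cluster (99.0%, led by Sprr1a and Bglap3), and Ino80-low wells in another (96.2%). The libraries shared 247 to 278 well barcodes in each pairing, and barcodes were treated as belonging to their own library.

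Several of these genes act at the surface of stressed cells or outside them. TNFRSF12A, also called Fn14, is the receptor of the cytokine TWEAK and signals to NF-kappaB, and CD44 binds hyaluronan and osteopontin. GDF15, galectin-3 (Lgals3), TIMP1 and the osteocalcin-related Bglap3 product are secreted, and UCHL1 is an intracellular ubiquitin hydrolase best known from neurons. SPRR1A is a small proline-rich protein of the epidermal cornified envelope that injured neurons and cardiomyocytes also make downstream of gp130 cytokines.

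The upstream sequence of Sprr1a is shown because Sprr1a leads the cluster of Ino80-high wells and is the only one of the 8 genes with a promoter window that held the AP-1 letters searched. It is the stretch chr3:92485882-92486131 on the minus strand of GRCm38.p6, taken from RefSeq, and it ends at the base before the RefSeq start. The GENCODE gene used for the counts reaches 92485895, so the last bases shown lie within that gene. Capitals mark matches to the AP-1 motif TGANTCA and to the TATA motif TATAAA.
Sprr1a: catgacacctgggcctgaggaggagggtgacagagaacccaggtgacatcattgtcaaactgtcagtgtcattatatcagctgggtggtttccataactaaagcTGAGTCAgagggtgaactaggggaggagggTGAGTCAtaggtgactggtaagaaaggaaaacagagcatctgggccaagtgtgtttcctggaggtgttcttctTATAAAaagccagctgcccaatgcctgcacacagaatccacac
The AP-1 matches begin 146 and 116 bases upstream of the RefSeq start, and the TATA match begins 43 bases upstream of it. RefSeq windows of 300 bases, from 250 before to 50 after a start, were found for 8 of the 9 genes (11 windows), with Prr13 the gene without one. On either strand, TGANTCA was in 1 of these 11 windows against 7.81% of 32851 windows of all genes, and TATAAA in 1 of 11 against 13.6%. The STAT motif TTCNNNGAA was in 1 window, of Bglap3, against 8.30%, and the TEAD motif CATTCC in 2, of Gdf15 and Timp1, against 14.7%. No motif was shared by more than 2 of the genes, and a match of letters is not evidence of binding.

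Sprr1a (chromosome 3, 92483952 to 92485895, minus strand) was close to absent on day 1. On day 1 its wells summed to 0.485 CPM (0.381 to 0.610, 95% interval). The sum was 6.64 CPM (6.25 to 7.04) for day 2, 156 CPM (153 to 158) in Ino80-high wells, 11.96 CPM in middle wells and 1.28 CPM (1.12 to 1.46) in Ino80-low wells of day 3. The day 1 value was 73 counts in 6 wells, 90.4% of them from 1 well, and 27.9% of the day 2 counts came from 1 well. In Ino80-high wells 17914 counts came from 198 of 400 wells, with 10.3% from the largest. The ratio of Ino80-high to Ino80-low wells was 6.93 on the log2 scale (6.74 to 7.12), with 5.26 when each well was given equal weight.

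The receptors differed from each other on day 2. Tnfrsf12a (chromosome 17, 23675445 to 23677468, minus strand) stood at 43.0 CPM (42.0 to 44.1) on day 1, 130.04 CPM (128 to 132) on day 2, 248 CPM (245 to 251) in Ino80-high wells and 19.96 CPM (19.3 to 20.6) in Ino80-low wells. It was the most evenly spread of the genes on day 2, with a count in 92.6% of wells and a median of 97.5 CPM per well. In all 400 Ino80-high wells it had a count, with a median of 213 CPM and a highest well of 1092 CPM. Its log2 ratio of Ino80-high to Ino80-low wells was 3.64 (3.59 to 3.69). Cd44 (chromosome 2, 102811141 to 102901665, minus strand) stood at 4.595 CPM on day 1, 5.27 CPM on day 2, 31.7 CPM in Ino80-high wells and 5.03 CPM in Ino80-low wells. Of its day 1 counts, 37.8% came from 1 well. Its ratio of 2.65 (2.55 to 2.76) was the smallest of the 9, and only the Ino80-high level stood apart from the other 3.

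Among the secreted products, Lgals3 (chromosome 14, 47367751 to 47386160, plus strand) stood at 11.6 CPM on day 1, 13.2 CPM on day 2, 242 CPM (239 to 244) in Ino80-high wells and 4.15 CPM (3.85 to 4.46) in Ino80-low wells. It was spread over most Ino80-high wells, with a count in 94.2% of them and a median of 164 CPM. Gdf15 (chromosome 8, 70629393 to 70632456, minus strand), a stress hormone of the TGF-beta family, stood at 8.40 CPM, 11.1 CPM, 46.7 CPM and 1.42 CPM in the same order. Timp1 (chromosome X, 20870166 to 20874735, plus strand), an inhibitor of matrix metalloproteases, stood at 6.92 CPM, 23.8 CPM, 124 CPM and 5.93 CPM. Bglap3 (chromosome 3, 88368616 to 88372743, minus strand) stood at 1.28 CPM, 21.2 CPM, 102.5 CPM and 0.648 CPM. One well gave 65.8% of the Bglap3 counts of day 2 and 62.5% of those of day 1. The log2 ratios of Ino80-high to Ino80-low wells were 5.86 for Lgals3, 5.04 for Gdf15, 4.39 for Timp1 and 7.31 for Bglap3. Of the 50-base stretches of Bglap3 transcripts, 11.5% also occur in other genes, the near-identical copies Bglap and Bglap2 among them, so its counts are less certain than those of the other 8 genes, which share none. Bglap and Bglap2 themselves had 0 counts in Ino80-high wells, and 73 and 3 counts in Ino80-low wells.

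Of the intracellular products, Prr13 had the highest level of all 9 genes in Ino80-high wells, and Uchl1 the second smallest ratio after Cd44. Prr13 (chromosome 15, 102459028 to 102462806, plus strand), a proline-rich protein whose role in heart is little described, stood at 27.3 CPM on day 1, 53.5 CPM on day 2, 678 CPM (673 to 683) in Ino80-high wells and 19.7 CPM (19.1 to 20.4) in Ino80-low wells. It had a count in each of the 400 Ino80-high wells and reached 50 CPM in 98.8% of them, against 11.3% of Ino80-low wells. Uchl1 (chromosome 5, 66676091 to 66687234, plus strand) stood at 8.78 CPM, 18.2 CPM, 100.4 CPM and 13.2 CPM in the same order. Its exons overlap those of Uchl1os on the opposite strand, and without a stated strand setting both transcripts cannot be separated. The log2 ratios were 5.10 for Prr13 and 2.92 for Uchl1.

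**Figure D1:**
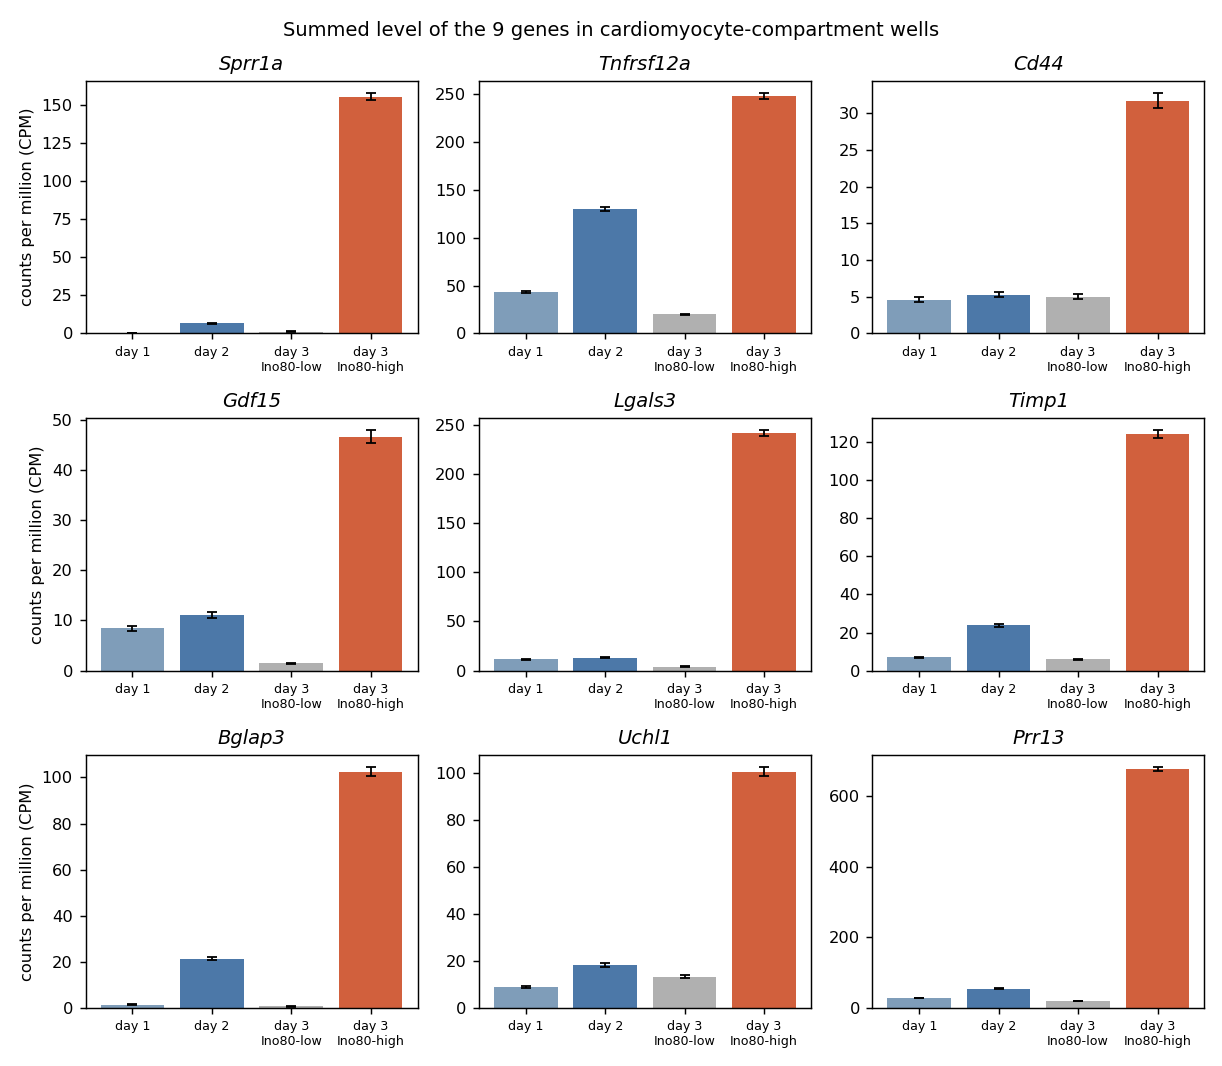
Summed level of each gene in CPM (bars from 0, error bars are exact Poisson 95% intervals) in compartment wells of day 1, day 2 and the Ino80-low and Ino80-high wells of day 3, with a separate vertical scale per gene. The Ino80-high bar is the highest in all 9 panels, from 31.7 CPM for Cd44 to 678 CPM for Prr13, and Tnfrsf12a has the nearest day 2 bar at 130.04 CPM.

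Per kilobase of exon, the order of levels differed between the groups. In Ino80-high wells Prr13 was first at 434 CPM per kilobase, followed by Sprr1a at 193, Timp1 at 140, Lgals3 at 130, Tnfrsf12a at 128, Uchl1 at 61.5, Bglap3 at 39.0, Gdf15 at 25.2 and Cd44 at 4.68. Of these neighbours only Lgals3 and Tnfrsf12a had overlapping counting intervals. On day 1 Tnfrsf12a was first at 22.3 CPM per kilobase, Prr13 second at 17.5, and Sprr1a, at 0.602, overlapped with Cd44 and Bglap3 at the bottom. In Ino80-low wells Prr13 at 12.6 and Tnfrsf12a at 10.3 CPM per kilobase were first and second.

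Counted at a fold of 2 among genes with a mean of at least 5 CPM, all 9 genes were higher in Ino80-high than in Ino80-low wells, where 24.6% of 7932 genes were. Their median log2 ratio was 5.04, against 0.27 over all genes tested. Day 3 as a whole against day 1 also gave 9 of 9, against a background of 5.33%, and 0 lower (background 7.96%). Day 2 against day 1 gave 4 of the 7 genes that passed the low-value filter, against 5.78%: Bglap3 (4.06), Timp1 (1.78), Tnfrsf12a (1.60) and Uchl1 (1.05), with Prr13 at 0.97, Gdf15 at 0.40 and Lgals3 at 0.19, and none was lower (background 2.97%). Day 3 against day 2 gave 6 of 9, against 3.55%, and the other 3 were Bglap3 at 0.92, Gdf15 at 0.74 and Tnfrsf12a at −0.28. Without the largest well of each group Bglap3 was at 2.35 there. Among wells with 15 to 30% mitochondrial counts, only 16 of them on day 1, Lgals3 was at 0.48 for day 3 against day 1, where all wells gave 3.04. Nothing is read from these counts against their backgrounds, because the genes were chosen with these contrasts in view.

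The day 3 library splits these comparisons, because its levels are a mixture of wells. Ino80-low wells of day 3 were below day 1 in 6 of the 9 genes, all but Sprr1a, Cd44 and Uchl1, in a comparison where the median over all genes tested was −0.29. Of the 5 genes that passed the filter there, none was higher by a fold of 2 (background 4.15%), while Tnfrsf12a was lower at −1.11 and Lgals3 at −1.48 (background for lower 15.7%). Timp1 was at −0.22, Prr13 at −0.47 and Uchl1 at 0.59. Against day 2, Ino80-low wells had 0 of 8 genes higher (background 3.67%) and 6 of 8 lower by a fold of 2 (background 22.1%), from Prr13 at −1.44 to Bglap3 at −5.04, with Uchl1 at −0.46 and Cd44 at −0.07. Ino80-high wells against day 1 had 9 of 9 higher (background 13.2%), from 2.47 for Gdf15 to 8.33 for Sprr1a. Against day 2 they had 8 of 9 higher (background 9.72%), and the exception was Tnfrsf12a at 0.93. These comparisons share their day 1, day 2 or day 3 wells and are not independent of each other. The mitochondrial share of days 1 and 2 was also higher than that of day 3, and library, day and mitochondrial share cannot be told apart.

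The wells next to the Ino80 limits differed in both directions. The 10 wells just at or above 1000 CPM had summed Prr13 at 714 CPM and Lgals3 at 257 CPM, and the 10 wells just under it, from 585 to 990 CPM, had Prr13 at 563 CPM and Lgals3 at 110 CPM. Tnfrsf12a (265 against 167 CPM), Uchl1 (143 against 106 CPM) and Gdf15 (16.8 against 3.54 CPM) were likewise higher above the limit. The other 4 genes were higher just under it: Sprr1a at 60.7 against 20.8 CPM, Bglap3 at 136 against 31.8 CPM, Timp1 at 91.3 against 50.9 CPM and Cd44 at 52.7 against 4.05 CPM. Sums over so few wells can rest on single wells. In all 47 middle wells, a single well gave 71.1% of Cd44, 68.2% of Bglap3, 52.8% of Sprr1a and 25.7% of Timp1 counts. No direction is read from these sums. The 10 wells on either side of 100 CPM had Prr13 at 18.0 CPM above and 27.8 CPM below. Inside Ino80-high wells Spearman's rho of each gene with Ino80 lay between −0.10 and 0.07 over 396 wells, which is too weak in sparse counts to be a finding.

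The genes fell into evenly spread and patchy ones. In Ino80-high wells Prr13, Tnfrsf12a and Lgals3 had a count in 100%, 100% and 94.2% of wells, and Uchl1 in 89.2%. Timp1 had one in 71.0%, Gdf15 in 67.2%, Bglap3 in 50.5%, and Sprr1a and Cd44 in 49.5% each. Cd44 and Gdf15 were at or above the median share of 41.8% of the 2039 genes at 20 to 50 CPM. The 319 genes at 200 to 400 CPM had a median share of 96.25%, with Lgals3 below it and Tnfrsf12a above it. Sprr1a and Bglap3 were far below the median share of their level: 549 genes at 100 to 200 CPM had a median share of 83.5% (quartiles 77.5 to 90), and only Higd1b, at 42.2%, was below both. At the same level Timp1 was below the lower quartile, and Uchl1 was above the median. The levels of single wells were correspondingly wide. Sprr1a had a median of 0 CPM, a 90th percentile of 499.95 CPM and a highest well of 2632 CPM, and 21.5% of Ino80-high wells reached 50 CPM.

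**Figure D2:**
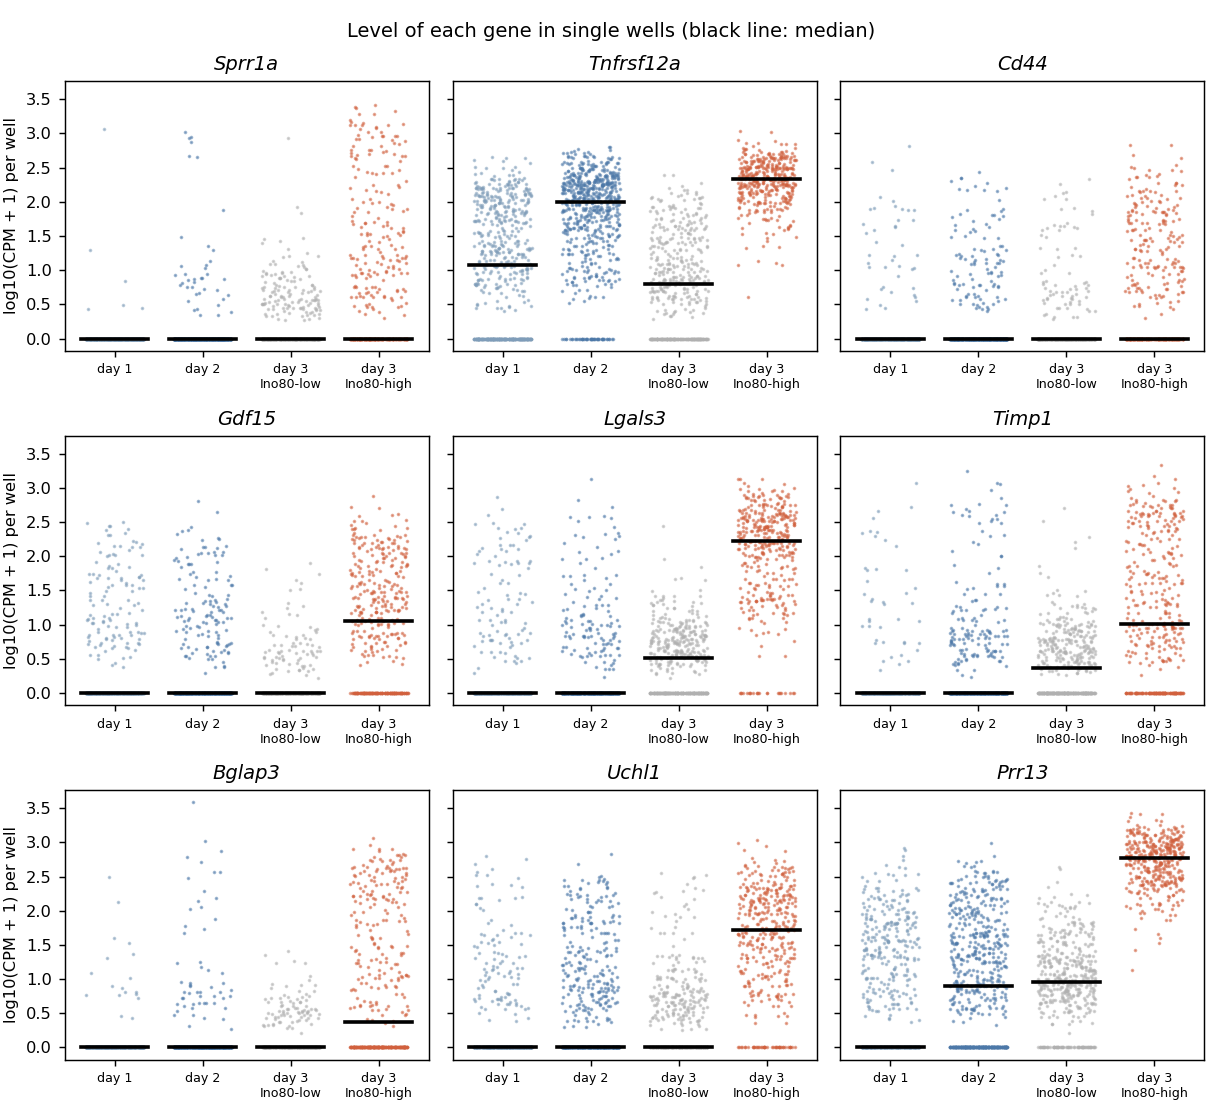
Level of each gene in single compartment wells, as log10(CPM + 1), with 1 point per well, points spread sideways at random, and a black line at the median of each group. Prr13 and Tnfrsf12a form a compact band in Ino80-high wells, whereas Sprr1a, Bglap3 and Timp1 run from 0 to over 1000 CPM and Sprr1a has its median at 0.

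**Figure D3:**
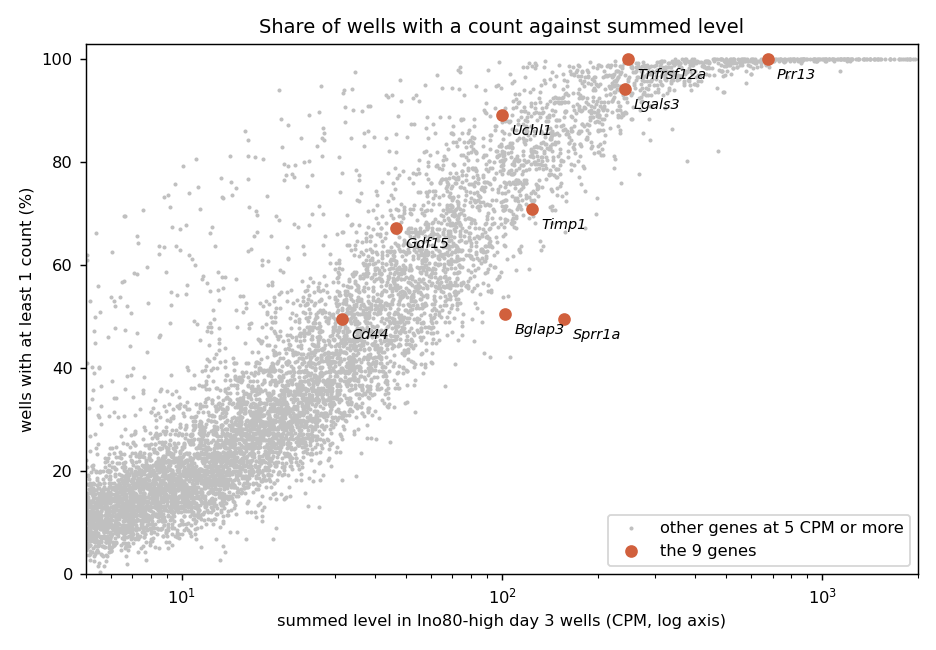
Share of Ino80-high day 3 wells with at least 1 count of a gene against its summed level in CPM on a log axis, for all genes at 5 CPM or more (grey) and the 9 genes (orange). Sprr1a (49.5%) and Bglap3 (50.5%) lie at the lower edge of the genes at 100 to 200 CPM, and Cd44 and Gdf15 lie within the cloud.

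To compare shares at equal depth, each well was thinned to 30000 counts of nuclear-encoded genes, which left out 15 wells of day 1, 4 of day 2, 4 Ino80-high and 3 Ino80-low wells. Sprr1a was then found in 0.338% of day 1 wells, 2.48% of day 2 wells, 29.5% (95% interval 25.1 to 34.3) of Ino80-high and 5.79% (3.82 to 8.37) of Ino80-low wells. Without thinning, 29.9% of Ino80-low wells had a Sprr1a count, but in 115 of those 135 wells it was 1 or 2 counts. Of 29 thinned Ino80-low macrophage-like wells, 2 held Sprr1a (6.90%, 0.846 to 22.8), at a median depth of 484513 counts against 326923 in the compartment. These wells held Myh6 at 14538 CPM, 0.901 of the compartment level, so they are not free of cardiomyocyte counts. With so few macrophage-like wells, this share cannot be ranked against the 5.79% of the compartment. Summed Sprr1a was 0.496 CPM (7 counts) in these wells against 1.28 CPM in the compartment. That is a log2 ratio of −1.37 (−2.70 to −0.30). No expression is read from either value. Whether the Sprr1a counts of Ino80-low wells are free RNA or low expression was not tested. Thinned Lgals3 was found in 8.63% of day 1, 8.82% of day 2, 81.1% of Ino80-high and 11.1% of Ino80-low wells. Of the 9 genes, a thinned well held a median of 1 on day 1, 2 on day 2, 5 (quartiles 4 to 6) in Ino80-high and 1 in Ino80-low wells. Every one of 396 thinned Ino80-high wells held at least 1 of the genes, and 1 well held all 9.

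Joint detection in the same well was different in the mixture and inside Ino80-high wells. Over all 891 thinned day 3 wells, 18 of the 36 pairs were found together at least 1.5 times as often as the product of their shares, and every pair was above 1, from 1.28 for Tnfrsf12a with Prr13 to 2.16 for Gdf15 with Bglap3. All the genes were higher in Ino80-high wells, which was known when they were chosen. Mixing high and low wells then puts pairs above 1 even where genes are independent within each group. The ratios of the mixture are therefore no finding. Inside Ino80-high wells 0 of 36 pairs reached 1.5, and the ratios ran from 0.846 for Sprr1a with Gdf15 to 1.15 for Gdf15 with Bglap3, with a median of 1.00. A ratio of 1.5 is out of reach where a gene is found in over 66.7% of wells, which left 15 pairs that could have reached it. Of those 15 pairs, 10 had reached it in the mixture. Sprr1a with Bglap3, the leading genes of the cluster, were both found in 40 Ino80-high wells where the product of their shares gave 37.5, a ratio of 1.07. Sprr1a was found with Gdf15 in 40 wells against 47.3. Spearman's rho over pairs lay between −0.09 and 0.16 inside Ino80-high wells, whose wells share a library.

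**Figure D4:**
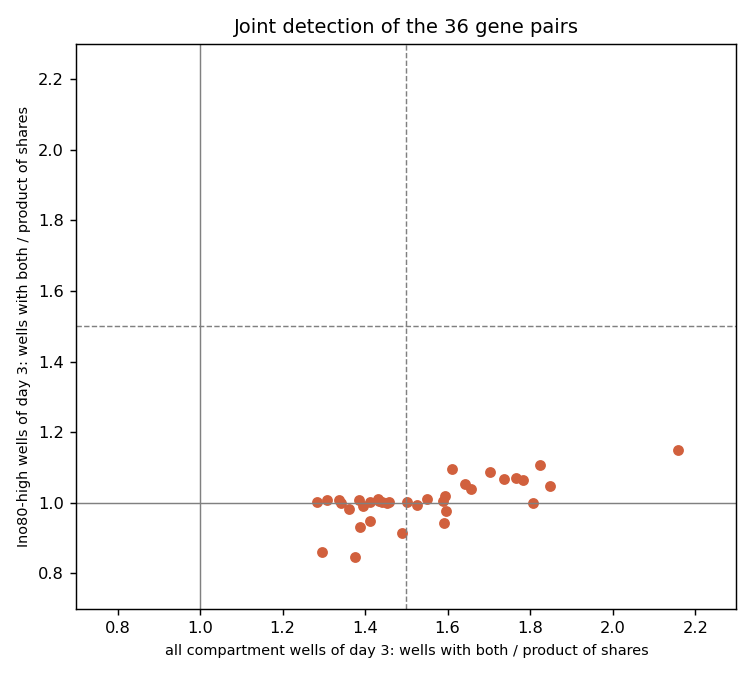
Ratio of wells holding both genes to the product of their shares, for the 36 gene pairs, in all thinned compartment wells of day 3 (horizontal) and in the Ino80-high wells alone (vertical). Solid lines mark 1 and dashed lines 1.5. All points lie right of 1 (1.28 to 2.16) but close to 1 on the vertical axis (0.846 to 1.15). Horizontal values above 1 follow from mixing wells for genes chosen with their Ino80-high levels known.

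In the other groups few pairs were frequent enough to give a ratio, which was computed only where at least 5 joint wells would come from the product of the shares. On day 1, 1 of 13 such pairs reached 1.5 (Gdf15 with Lgals3, 1.55). On day 2, 3 of 21 did, the highest Gdf15 with Timp1 at 1.66, and in Ino80-low wells 1 of 14 did, Timp1 with Uchl1 at 1.60. Each of these 5 ratios rests on 8 or 9 joint wells. In the 46 thinned middle wells 2 of 7 pairs reached 1.5, Tnfrsf12a with Lgals3 at 1.77 (11 joint wells) and Tnfrsf12a with Uchl1 at 1.57 (9 joint wells).

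The genes were also found outside the compartment. In the 42 Ino80-high wells with macrophage markers, Lgals3 was 685 CPM against 242 CPM in the compartment, and Cd44 59.9 CPM against 31.7 CPM, while Sprr1a was 51.6 CPM against 156 CPM, with 42.9% of it from 1 well. Uchl1 stood at 104 CPM against 100.4 CPM, and Tnfrsf12a at 175 CPM against 248 CPM. These wells also held Ino80 at 2583 CPM and Myh6 at 4303 CPM, which is 0.851 and 0.929 of the compartment levels, so counts of cardiomyocyte genes were present in them too. Whether it came from free RNA, joint wells or the cells named was not tested. In the 29 Ino80-low macrophage-like wells Lgals3 was 16.2 CPM, and the log2 ratio of Ino80-high to Ino80-low macrophage-like wells was between 3.54 (Prr13) and 6.92 (Bglap3) for all 9 genes.

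In the 31 Ino80-high wells of the fibroblast-like cluster led by Timp1 and Postn, Timp1 was 2699 CPM, 21.7 times the compartment level, a value that chose the cluster. Sprr1a and Bglap3 were 0.260 and 0.251 of it there, lower than Ino80 (0.797) and Myh6 (0.607), with 39.0% and 60.2% of their counts from 1 well each. Lgals3, Cd44, Prr13 and Gdf15 were also higher in macrophage-like wells than in the compartment on the earlier days. The other genes were lower there. Prr13 was 79.9 against 27.3 CPM on day 1 and 108 against 53.5 CPM on day 2. On these days Gdf15 was 29.5 against 8.40 CPM and 20.8 against 11.1 CPM, with 19.9% and 37.9% of its macrophage-like counts from 1 well. In the other fibroblast-like cluster Timp1 was 28.2 against 6.92 CPM on day 1 and 106 against 23.8 CPM on day 2. On day 2 Lgals3 was 214 CPM in 82 macrophage-like wells and 13.2 CPM in the compartment, and Cd44 62.8 CPM and 5.27 CPM, although single wells gave 44.5% and 46.8% of these macrophage-like counts. On day 1 Lgals3 was 98.9 against 11.6 CPM, and Cd44 64.3 against 4.595 CPM with 71.1% of the macrophage-like counts from 1 well. In Ino80-low wells of day 3 Cd44 was instead lower in macrophage-like wells, at 3.40 against 5.03 CPM.

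**Figure D5:**
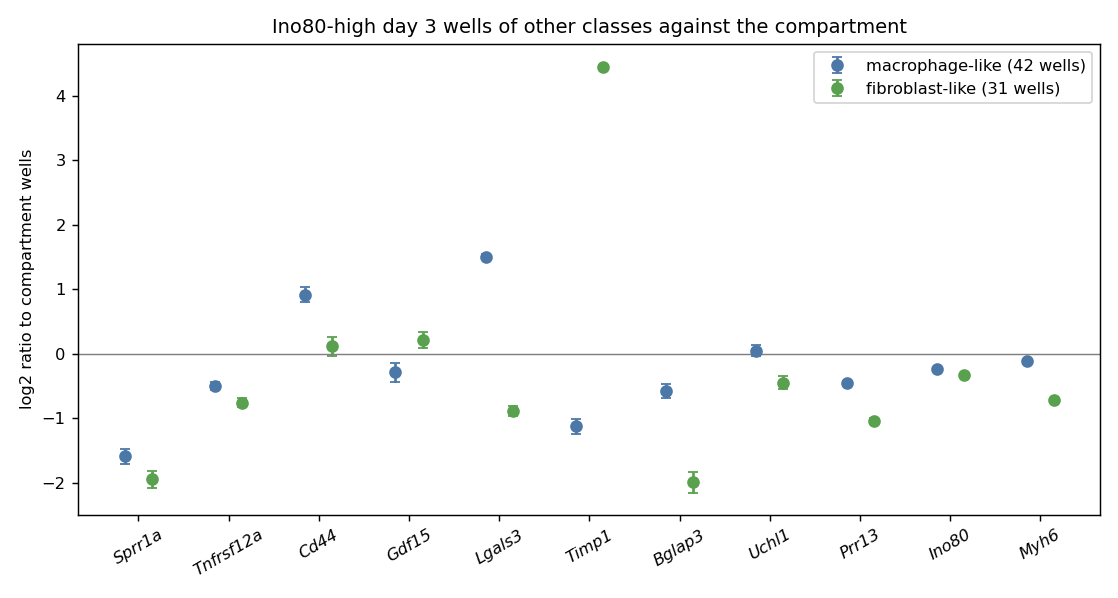
Log2 ratio of summed CPM in Ino80-high day 3 wells of the macrophage-like class and of the Timp1-led fibroblast-like cluster to Ino80-high compartment wells, for the 9 genes and for Ino80 and Myh6 as comparison (error bars are exact 95% counting intervals). Timp1 in fibroblast-like wells (4.44) and Lgals3 in macrophage-like wells (1.504) lie highest, and Sprr1a lies below Ino80 and Myh6 in both classes.

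Markers of other cells moved with the Ino80 groups inside the compartment. The summed level of 12 macrophage markers was 219 CPM in Ino80-high wells (single wells from 0 to 1762 CPM, 8 markers above 5 CPM) and 53.1 CPM in Ino80-low wells (0 to 3143 CPM, 4 above 5 CPM), with no marker at 0. For 10 fibroblast markers the sums were 242 and 192 CPM. The sums were also higher in Ino80-high wells for atrial (2532 against 1161 CPM), erythroid (602 against 190 CPM), lymphocyte (27.2 against 2.36 CPM) and neutrophil markers (10.4 against 4.34 CPM), with the lymphocyte markers Cd3e and Ms4a1 and the neutrophil marker Ly6g at 0 in Ino80-high wells. Neuron (12.3 against 2.80 CPM), endothelial (1587 against 1251 CPM) and Schwann marker sums (8.98 against 5.36 CPM) were higher there as well. Pericyte and smooth muscle marker sums were 486 and 423 CPM, and mesothelial ones were lower, at 11.4 against 17.5 CPM. The part of all these other markers in the results was not tested. Ratios of Ino80-high to Ino80-low wells were also taken without the 25% of each library's wells highest in macrophage and fibroblast markers. On the log2 scale they were 7.16 for Sprr1a, 5.93 for Lgals3, 4.46 for Timp1 and 2.65 for Cd44. The genes were chosen with this contrast known, so these values are a description only. Inside Ino80-high wells rho with the macrophage markers was at most 0.20, for Prr13. With the mitochondrial share rho was −0.368 for Prr13, −0.235 for Tnfrsf12a, −0.190 for Lgals3 and −0.149 for Sprr1a. It lay between −0.070 and 0.016 for the remaining genes. With the endothelial markers rho ran from −0.205 for Prr13 to 0.028 for Gdf15. The part of the mitochondrial share inside this group was not tested. Fewer wells of a type and less RNA per cell cannot be told apart in summed levels.

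Genes around these products are given next from lists, each set beside the 24.6% of all genes that were higher and 12.3% that were lower by a fold of 2 between Ino80-high and Ino80-low wells. Of the gp130 cytokine genes measured, 8 of 14 were higher and 2 lower, with a list median of 1.32. The acute-phase products Serpina3n (22.7 against 1.09 CPM) and Lcn2 (154 against 13.7 CPM), the metallothionein Mt2 (227 against 22.3 CPM) and the oncostatin M receptor Osmr (22.7 against 2.73 CPM) had the largest differences. On day 2 against day 1, 2 of 14 of these genes were higher and 0 lower, where 5.78% and 2.97% of all genes were.

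Of the genes listed for TWEAK, its receptor and NF-kappaB signalling, 4 of 9 measured were higher and 0 lower (median 0.87). These were the NF-kappaB subunit Rela (46.4 against 8.40 CPM), its inhibitor Nfkbia (91.8 against 26.6 CPM), the deubiquitinase Cyld (65.8 against 20.2 CPM) and the kinase Ikbkb (21.4 against 8.63 CPM). Of the CD44 ligands and partners, 2 of 6 were higher and 0 lower (median 0.66): osteopontin Spp1 (18.6 against 0.744 CPM) and the membrane linker Msn (231 against 35.2 CPM). Its fellow linker Rdx stood at 0.38 on the log2 scale.

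Around the secreted products, the list drawn up for Gdf15 mixes possible regulators with other stress-response genes. Of these, 7 of 12 were higher and 1 lower (median 1.20). The p53 target Cdkn1a was 1206 against 54.1 CPM, the phosphatase subunit Ppp1r15a 155 against 4.82 CPM and the ATF4 target Asns 12.6 against 0.324 CPM, while Vldlr was lower, at 31.6 against 246 CPM. Of the metalloproteases and partners of TIMP1, 2 of 6 were higher and 0 lower (median 0.63), namely the protease Adamts1 (119 against 18.5 CPM) and the TIMP1-binding tetraspanin Cd63 (1350 against 311 CPM). Of the AP-1 genes, 4 of 7 were higher and 0 lower (median 1.25): Junb, Maff, Atf3 and Jund, from 1.25 to 2.07.

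Border-zone and stress genes included 15 of 19 higher and 0 lower (median 1.71), such as the small heat shock protein gene Hspb1 (4873 against 479 CPM), Tubb6 (152 against 12.1 CPM) and Nppa (226 against 31.5 CPM). Of the dedifferentiation genes, 6 of 8 were higher and 0 lower (median 1.93), led by the smooth muscle gene Cnn1 (49.99 against 0.699 CPM). The axon regeneration genes had 3 of 5 higher and 0 lower (median 1.52). This list overlaps the others, as it holds Hspb1 and Atf3, already counted as higher in the border-zone and AP-1 lists. In day 3 as a whole against day 1, where 5.33% of all genes were higher and 7.96% lower, 7 of 19 border-zone genes were higher and 1 lower. In the same comparison 4 of 8 dedifferentiation genes were higher and 0 lower, and 0 of 6 AP-1 genes were called either way.

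Close relatives did not move as a block. Of 12 measured family members, 6 were higher and 1 lower (median 1.00). Timp4 was 143 against 30.3 CPM, whereas Timp2 was 27.9 against 29.7 CPM. Among galectins Lgals1 was at 1.30, Lgals8 at 1.62 and Lgals9 at 0.70 on the log2 scale, and Lgals4 was lower, at 1.15 against 23.4 CPM. Uchl5 was at 0.10, and the receptor Tnfrsf1a at 2.47. Sprr1b, Sprr3 and the Sprr2a genes had 0 counts in both groups.

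The genes most like Sprr1a across the 396 thinned Ino80-high wells were Vps28, Mrps27, Map1lc3a, Edf1, Efna1, Mcrip1, Mllt6, Cox5b, Tmem116 and Mrpl47, out of 5245 genes with at least 10 CPM and a count in 10% of these wells. Their Spearman's rho with Sprr1a ran only from 0.16 to 0.18, against a median of −0.01 over all candidates. The other 8 injury genes ranked from 20 (Prr13, 0.14) to 4990 (Gdf15, −0.09). At this sparsity such weak correlations are no finding, and none of the 10 most alike was an injury gene of this set.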

How the data were processed

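Per the labels, polyA RNA of single live wells (iCELL8 platform) was made into Nextera XT libraries and sequenced paired-end. The authors deposited whole-number read counts for each gene in each well, without normalization. The submitters' processing notes name cutadapt, STAR, featureCounts and mm10. Versions, strand setting and use of molecular identifiers were not given in the sources read, so the counts are taken as reads, which are not independent molecules. The libraries held 487461107, 452070922 and 484369736 counts in 1232, 1063 and 1099 wells. Of 55502 features, 101 are spike-ins or added sequences and stayed out of all totals. Symbols and coordinates are from GENCODE M21 on mm10.

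Wells with at least 1000 counts and 300 genes were kept (1225, 1059 and 1092). They were clustered jointly in scanpy 1.11.5 on nuclear-encoded genes (10000 counts per well, log scale, 2000 variable genes, scaled to at most 10, 30 components, 15 neighbours, igraph 0.11.9 Leiden at resolution 0.5, seed 0). These settings were chosen after several others had been seen, the first of which gave the Sprr1a-led cluster a neutrophil name. A type name needed at least 3 of its markers at 20 CPM and 2-fold above all other wells, and top genes that fitted it. Clusters without a name, and the atrial-like one, form the compartment, and other settings would name wells differently. No doublet caller was run.

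Counts were summed over wells and divided by the nuclear-encoded total (CPM), with exact Poisson intervals. Ratios have exact intervals from the binomial split and shares have Clopper-Pearson intervals, all at 95%. A count of 0 was set to 3 counts for ratios. A gene was called at a fold of 2 among genes with a mean of at least 5 CPM. Thinning drew 30000 counts per well (seed 0). With 1 library per group no test was made. The computations were tested on simulated data. The 9 genes, the gene lists, the markers and the motifs were chosen with earlier results of these data known. Named genes are the 9 genes, up to 4 members of a list with the largest difference (5 CPM added), the 10 genes most like Sprr1a, Ino80 and close relatives. Higd1b, and Myh6 as a comparison, were named after their values were seen. Alternatives changed the scale, the wells, the summary over wells, the filters, the Ino80 limits and the depth of thinning.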

Additional observations from a re-analysis of the deposited data

How the results depend on the processing

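Under the alternatives tried for each count, all 9 genes stayed higher by a fold of 2 in Ino80-high than in Ino80-low wells. That contrast was known when the genes were chosen. The counts ran from 3 to 6 for day 2 against day 1, from 8 to 9 for day 3 against day 1 and from 6 to 8 for day 3 against day 2. No called ratio changed sign, but some smaller ones did. For day 2 against day 1, Prr13 fell as low as −0.41 and Gdf15 as low as −0.10. Tnfrsf12a reached 0.08 for day 3 against day 2. Of 414 ratios of single genes, 186 lay outside the counting interval of the value given above. The wells with 15 to 30% mitochondrial counts held only 16 wells of day 1, where Lgals3 moved to −1.72 for day 2 against day 1. Median-of-ratios scaling moved the median of all genes from 0.27 to −0.32 between Ino80-high and Ino80-low wells, and the 9 ratios by −0.57 each. Without the largest well of each group, Sprr1a moved from 3.77 to 6.68 for day 2 against day 1 and to 10.18 for day 3 against day 1, and Bglap3 from 0.92 to 2.35 for day 3 against day 2. Giving wells equal weight moved Sprr1a from 6.93 to 5.26 between Ino80-high and Ino80-low wells. The count of joint pairs inside Ino80-high wells was 0 at every setting, with ratios up to 1.42 where at least 3 counts were required. Several of these settings could hardly give another count. Without thinning, Gdf15, Timp1, Uchl1, Lgals3, Tnfrsf12a and Prr13 were each found in over 66.7% of these wells. Pairs holding any of these genes then cannot reach the ratio that was set. A stricter ratio is bound to give 0 once the main ratio does. The count of 0 at such settings is therefore not read as robustness. Leaving out the unnamed cluster led by Cytl1, Npr3 and Vwf was chosen after seeing the data and kept every count. No paired analysis was possible because each day has 1 library. A single library per day and reads without molecular identifiers limit every value.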
